A study of Mus musculus with 4 samples.

Results

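The comparison described here is the baseline one: RNA captured with phosphorylated ribosomes (IP) against total RNA (input) of the same hypothalamus, in vehicle-injected mice. Its members are the 2 control samples of the 4 samples in the series, taken by their labels, each with 1 IP array and 1 input array, so 4 of the 8 arrays. All samples were hypothalamus of C57Bl/6J mice killed at 12 weeks of age near circadian time (CT) 6, and all were bound with an antibody to S6 phosphorylated at residues labelled 244/247. Control mice were given PBS and the other 2 samples 2 M NaCl, by an injection of 325 uL, and in both groups water was removed and tissue taken 2 h later, so the baseline is that of injected mice without water. Nothing in the labels tells if each sample came from a single animal or from pooled tissue, and the p-values therefore measure only the spread between these samples, which may be technical. RNA was amplified, labelled with biotin and read on Illumina BeadArrays. RNA from a mock capture was not analysed here.

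Ribosomal protein S6 is a component of the small ribosomal subunit. S6 kinases downstream of mTOR phosphorylate it, and in neurons its phosphorylation follows activity. An antibody to phosphorylated S6 brings down ribosomes with the mRNA they carry, so the ratio of IP to input ranks transcripts by how far they are over- or under-represented on those ribosomes relative to total RNA. In whole tissue, fewer cells of a type and less RNA per cell cannot be told apart.

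Of 25697 probes, 14199 were detected on at least 2 of the 8 arrays and stood for 10182 genes, each represented by its brightest probe. With limma on the log2 ratio of IP to input and an adjusted p under 0.05 (Benjamini-Hochberg over all 14199 probes), 1971 genes (19.4%) were higher in the control IP than in input and 2127 (20.9%) were lower, while 6084 passed in neither direction. A difference of 2-fold or more was reached by 739 of the higher and 408 of the lower genes, some of them not detected on a side. Among the 8553 genes detected on all 4 control arrays, 17.2% were higher and 22.2% lower. In that set 490 higher and 333 lower genes reached 2-fold. The log2 ratio had a median of -0.05 over all genes, and its 5th and 95th percentiles were -0.95 and 1.15. Across genes, the ratios of both control samples correlated at 0.87 (Pearson, a description over genes that share arrays). Over all probes the split was 2823 higher (19.9%) and 2849 lower (20.1%), but 2130 and 4471 when arrays were scaled by their median in place of quantile normalisation, which moved the median of all genes to -0.27. With control replicate 1 left out the calls were 965 and 604 probes, and with control replicate 2 left out 787 and 354, since a single control sample then carries the estimate. More probes were detected on the control IP arrays (13719 and 13423) than on the input arrays (12259 and 12605). Of the genes, 531 were detected on both control IP arrays and neither input array, 349 of them called higher, and 73 the other way round, 72 of them called lower.

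The largest rise among genes detected on all 4 control arrays was that of Sec24d, a cargo-binding subunit of the COPII coat. Its log2 normalised intensity was 10.48 and 10.68 on the IP arrays and 7.69 and 8.05 on the input arrays. The log2 ratio was 2.71 ± 0.18 (mean of 2 control samples ± SE of the fit, adjusted p = 0.000784, limma). Here and below, this SE pools the spread within the control and the salt samples and is moderated over all probes. It is therefore not the spread of the 2 control samples alone. Usp16, a deubiquitinase of histone H2A, read 11.96 and 11.90 in the IP against 9.55 and 9.44 in input (2.44 ± 0.15). The other genes at this end of the range were Naa16 (2.55 ± 0.17), the histone chaperone gene Hira (2.41 ± 0.27), the RNA helicase gene Dhx9 (2.37 ± 0.20), the microRNA-processing gene Dicer1 (2.37 ± 0.22), Cdan1, Cspp1, the histone methyltransferase gene Kmt2b (2.28 ± 0.15), the cohesin loader gene Nipbl (2.26 ± 0.17), the acetyl-histone reader gene Brd2 (2.23 ± 0.18) and the exonuclease gene Xrn1 (2.15 ± 0.19). For each of these 12 genes both IP arrays lay above both input arrays. Among genes not detected on either input array, Hivep2 was at least 6.20-fold higher in the IP, Helq at least 5.91-fold and Ap1g2 at least 3.77-fold, where the bound sets the IP mean against the dimmest signal that counts as detected. A gene not detected on either array of a side has such a bound and no measured fold, and a class median that moves by over 0.1 with these genes at their bound is given both ways.

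At the other end, Onecut2, a homeodomain transcription factor gene, read 6.59 and 7.05 in the control IP against 9.79 and 9.47 in input. Its log2 ratio was -2.81 ± 0.22 (adjusted p = 0.000784, limma). Efhd1, which encodes a mitochondrial calcium-binding protein, followed at -2.23 ± 0.20 and Rsrp1 at -2.08 ± 0.25. The genes of 3 secreted peptides came next among others: Oxt, Avp and Gal, described below with their class. Dnajc12 (-1.85 ± 0.28), a co-chaperone of the aromatic amino acid hydroxylases, the histone gene H2bc4 (-1.80 ± 0.23), the G protein subunit gene Gng11 (-1.75 ± 0.16), Spata24, Cmbl and the acyl-protein thioesterase gene Lypla1 completed the 12 largest falls. IP and input arrays did not overlap for any of these 12. Of the genes detected on both input arrays and neither IP array, Lrrc29 was at least 6.21-fold lower in the IP, and Npy and Agrp, both peptides of arcuate neurons that drive feeding, at least 3.36-fold.

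**Figure D1:**
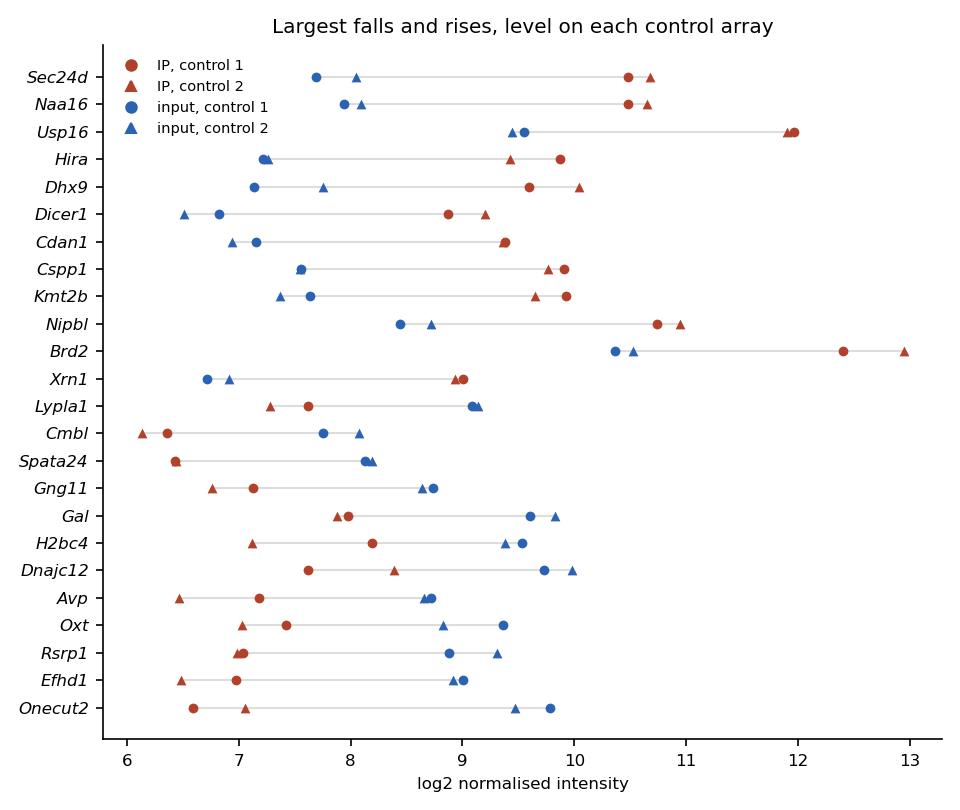
Log2 normalised intensity of the 12 largest falls (bottom) and 12 largest rises (top) among genes detected on all 4 control arrays; red marks IP and blue input, circles control sample 1 and triangles control sample 2. IP and input arrays do not overlap for any of the 24 genes; Sec24d lies at 10.48 and 10.68 in the IP and at 7.69 and 8.05 in input.

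Markers of hypothalamic neurons checked the labelled tissue and gave the lowest class median of those with 15 or more measured members. Of 17 markers, most of them genes of peptide precursors, 15 were measured, which leaves out Otp and Six6. In the control IP 11 were lower (73.3%, all genes 20.9%) and 0 higher, with a median log2 ratio of -1.20. With control replicate 1 left out 8 of them were called lower, and with control replicate 2 left out 11. Hcrt, the precursor of the arousal peptides orexins, read 8.89 and 8.92 in the IP and 10.10 and 10.11 in input (-1.20 ± 0.16, adjusted p = 0.00201). The transcription factor gene Nkx2-1, which specifies the ventral hypothalamus, was at -1.04 ± 0.19, and its call was lost without control replicate 1, which leaves -0.85. Sim1 and Pmch, the precursor of melanin-concentrating hormone, were not called, with log2 ratios of 0.08 ± 0.20 and -0.06 ± 0.18, and neither was Six3, which no control input array detected. Pomc was not detected on any control array, and 0 of 9 pituitary markers, among them Gh, Prl and Pou1f1, passed the detection filter.

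Neuropeptide precursors as a class were mostly under-represented. This class overlaps the hypothalamic list, where every lower marker but Nkx2-1 is a peptide precursor gene, so the results of both lists are not separate. Of 24 measured, 17 were lower in the control IP (all genes 20.9%), 3 were higher (all genes 19.4%) and 4 were not called, with a median of -0.998 (-0.85 with 8 genes not detected on a side at their bound) against -0.05 over all genes. Leaving out control replicate 1 gave 9 lower and 1 higher, and leaving out control replicate 2 gave 12 and 2. Oxt, the precursor of oxytocin, a peptide of magnocellular neurons that causes milk ejection, read 7.42 and 7.03 in the IP against 9.36 and 8.82 in input (-1.86 ± 0.15, adjusted p = 0.000798). Avp, which encodes vasopressin, the peptide that lets the kidney retain water, read 7.18 and 6.47 against 8.72 and 8.65 (-1.86 ± 0.23, adjusted p = 0.00152). Agrp, the agouti-related peptide of arcuate neurons, read 5.14 and 5.23 in the IP, below detection, against 7.38 and 7.78 in input. The IP values of these genes lay under their input values in both samples.

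Other peptides that fell in the IP were Gal (-1.79 ± 0.17), Sst, the precursor of somatostatin, which restrains growth hormone release (-1.33 ± 0.18), Trh, which drives the thyroid axis (-1.18 ± 0.20), and Crh and Ghrh, which drive release of corticotropin and growth hormone and were at least 1.33-fold and at least 2.52-fold lower. Crh was detected on 1 of the 4 control arrays, an input array. The calls of Trh and Crh were lost without control replicate 1, which leaves -1.12 for Trh. Vip, the peptide of light-receiving neurons of the suprachiasmatic nucleus, went the other way: it read 8.69 and 8.53 in the IP and 6.99 and 7.18 in input, a log2 ratio of 1.52 ± 0.16 (adjusted p = 0.00121), with no overlap. Prok2, a second output peptide of that nucleus, was not detected on either input array and was at least 1.36-fold higher, and its call was lost without control replicate 1. Pnoc, the precursor of nociceptin, was the remaining higher member, at 0.79 ± 0.17, and was named after its value was seen.

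**Figure D2:**
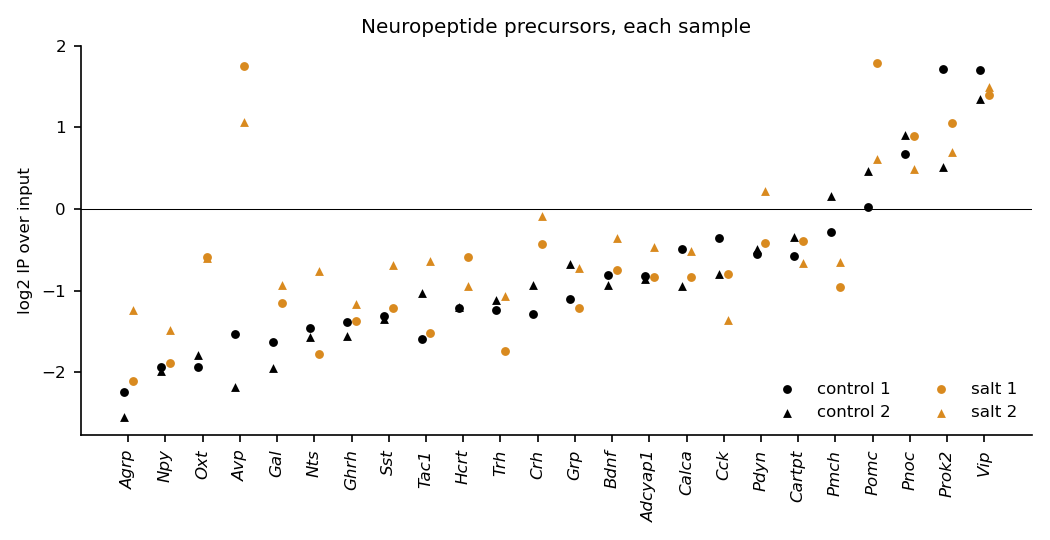
Log2 IP over input of the 24 measured neuropeptide precursors in each sample, ordered by the control mean; black marks control and orange salt samples, circles replicate 1 and triangles replicate 2, and the line is equal signal in IP and input. Both control values lie under the line for 19 genes and above it for Vip, Prok2, Pnoc and Pomc, of which Pomc was not detected on control arrays; both salt values of Avp lie above it. Points of genes not detected on a side, such as Agrp, Npy and Prok2, show the array signal and are not measured folds.

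The promoter windows of 3 peptide genes are given because these genes are all expressed in restricted groups of hypothalamic neurons and yet fell on opposite sides of the baseline ratio. The windows run from 250 bases before to 50 after the start of the gene in RefSeq (GRCm38.p6), 5′ to 3′ on the gene's strand, with the motifs TATAAA and TGACGTC (the core of a cyclic AMP response element) in capitals where they occur on either strand. Vip lies at chr10:5638968-5639267 on the plus strand, Sst at chr16:23890795-23891094 on the minus strand and Avp at chr2:130582539-130582838 on the minus strand.
Vip: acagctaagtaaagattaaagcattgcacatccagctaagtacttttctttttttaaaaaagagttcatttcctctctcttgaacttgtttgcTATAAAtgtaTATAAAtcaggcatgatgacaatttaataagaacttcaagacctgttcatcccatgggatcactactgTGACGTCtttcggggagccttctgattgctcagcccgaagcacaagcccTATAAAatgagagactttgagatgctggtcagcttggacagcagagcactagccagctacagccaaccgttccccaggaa
Sst: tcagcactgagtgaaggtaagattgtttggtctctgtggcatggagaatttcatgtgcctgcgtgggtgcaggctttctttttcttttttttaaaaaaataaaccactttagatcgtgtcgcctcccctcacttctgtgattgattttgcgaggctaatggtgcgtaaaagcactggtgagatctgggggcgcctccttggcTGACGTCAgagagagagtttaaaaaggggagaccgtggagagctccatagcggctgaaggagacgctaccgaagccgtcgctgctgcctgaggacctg
Avp: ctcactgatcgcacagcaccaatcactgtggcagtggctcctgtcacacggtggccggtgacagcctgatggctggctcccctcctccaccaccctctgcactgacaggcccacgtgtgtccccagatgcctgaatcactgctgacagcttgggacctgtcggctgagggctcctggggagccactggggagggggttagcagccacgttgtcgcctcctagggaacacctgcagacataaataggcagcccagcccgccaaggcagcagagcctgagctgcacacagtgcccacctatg
TATAAA occurred 3 times in the Vip window and in neither of the others. TGACGTC occurred 79 bases before the start of Vip and, in the Sst window, on both strands of 1 overlapping site 48 bases before its start. Over 20 neuropeptide precursors with a window, 5 held TATAAA (25.0%) and 4 TGACGTC (20%), against 14.2% and 3.33% of the 27025 windows in the table and 7.06% and 5.79% of the 7821 windows of genes measured here. The letters TGACGTC were thus found in a gene on each side of the ratio, Vip higher and Sst lower. By call, TGACGTC was in 5.16% of the windows of higher genes and 6.19% of those of lower genes, and TATAAA in 5.81% and 8.89%. Windows were matched for 76.8% of the measured genes, so these shares are a description.

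Genes that process and store peptides lay under the median of all genes. Of 18 prohormone processing enzymes and granins, 6 (33.3%) were lower and 1 (5.56%) was higher, against 20.9% and 19.4% of all genes. The class had a median of -0.40, and 12 members were lower under median scaling. Scg5, a chaperone of prohormone convertase 2, was at -1.34 ± 0.19, Qpct, which forms N-terminal pyroglutamate, at -1.16 ± 0.15, and Resp18 at -1.09 ± 0.15. With either control replicate left out, 3 members were called lower. The higher member was Furin, the general proprotein convertase (0.77 ± 0.15), and its call was lost when either control sample was left out, which leaves 0.69 or 0.85.

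Of 23 markers common to all neurons, 1 (4.35%) was higher and 5 (21.7%) were lower, with a median of -0.10. The share lower was near that of all genes (20.9%), and the share higher was under it (19.4%). Under median scaling the counts were 0 and 12, with a median of -0.53 against -0.27 for all genes. Leaving out control replicate 1 gave 0 calls, and leaving out control replicate 2 gave 1, lower. The summed signal of the list was 45970 and 43240 on the control IP arrays and 46280 and 44980 on input. Snap25, a membrane-fusion protein of the synapse, read 7.09 and 7.61 in the IP against 8.46 and 8.67 in input (-1.21 ± 0.20), a call lost without control replicate 1, which leaves -1.06. Among 40 genes of the synaptic vesicle and release machinery, 8 were higher and 8 lower, 20% each way and so near the shares of all genes (19.4% and 20.9%), and 6 and 21 under median scaling (median -0.56). The higher ones included Unc13b, a vesicle priming factor, which read 9.14 and 8.58 in the IP against 7.0 and 6.77 in input (1.97 ± 0.17), and Rims1 (1.23 ± 0.20) and Rims2 (1.20 ± 0.16), active-zone scaffolds. Genes of the higher group spanned a median of 399 kb of genome and those of the lower group, which held Snap25, 45.9 kb. For the class, leaving out control replicate 1 gave 5 higher and 0 lower, and leaving out control replicate 2 gave 3 and 2.

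Neither channels nor receptors were called higher more often than all genes. Of 80 voltage-gated channel genes 14 (17.5%) were higher and 9 (11.2%) lower, with a median of 0.13, or 0.02 with 12 genes at their bound, and 10 and 18 under median scaling. Cacna1b, the pore of the N-type calcium channel, was at 1.77 ± 0.28 and Kcnn1, a calcium-activated potassium channel detected on 1 of 2 input arrays, at 1.26 ± 0.16, and Kcnip1, an accessory subunit of A-type potassium channels, at -0.92 ± 0.18. Of 33 transmitter-gated receptor genes 5 (15.2%) were higher and 8 (24.2%) lower (median -0.07), the lowest being the GABA-A subunit gene Gabra5 (-1.33 ± 0.21) and the glycine receptor subunit gene Glrb (-1.06 ± 0.18). Of 22 postsynaptic scaffold genes 6 (27.3%, all genes 19.4%) were higher and 0 lower. The median was 0.24, but -0.04 under median scaling, where 2 were called higher. When control replicate 1 or 2 was left out these counts were 5 and 3 higher for channels, 3 and 0 lower for receptors and 0 higher for scaffolds, and the calls of Kcnip1, Gabra5 and Glrb were lost with at least 1 sample left out (ratios -1.10 and -0.75, -1.18 and -1.49, and -0.91 and -1.21 in control 1 and 2).

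Immediate early genes, which neurons transcribe within minutes of activity, did not share a direction. Of 22 measured, 1 (4.55%) was higher and 4 (18.2%) were lower, against 19.4% and 20.9% of all genes. The median was -0.04, and 0.02 among genes detected on all 4 control arrays. Arc, whose mRNA is carried to dendrites and translated at active synapses, read 9.05 and 9.13 in the control IP and 6.95 and 7.09 in input (2.07 ± 0.16, adjusted p = 0.000793), and it stayed called with either control sample left out. Egr1, a zinc finger transcription factor, read 9.88 and 9.89 in the IP against 10.82 and 10.81 in input (-0.93 ± 0.17). Fos, a subunit of AP-1, read 6.75 and 5.51 against 7.41 and 6.45 (-0.79 ± 0.17). Its IP value in control 2 was not well above background, and its IP value in control 1 exceeded its input value in control 2. The call of Fos was lost in an unpaired fit, and the calls of Egr1 and Fos were lost when either control sample was left out, with ratios of -0.94 and -0.93 for Egr1 in control 1 and 2 and of -0.65 for Fos in control 1.

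Markers of non-neuronal cells differed by cell type. Of 9 oligodendrocyte precursor markers 5 (55.6%) were higher and 1 (11.1%) lower, against 19.4% and 20.9% of all genes (median 0.60). Their summed signal was 2359 and 2772 in the control IP against 1643 and 1813 in input. Gpr17, a receptor of precursors committed to differentiate, read 9.26 and 9.72 in the IP and 7.77 and 7.63 in input (1.79 ± 0.18, adjusted p = 0.00109). The lower precursor marker was Cspg5 (-0.95), whose call was lost without control replicate 1. Mature oligodendrocyte and myelin markers lay lower, with 2 (10.5%) higher and 6 (31.6%) lower of 19, against 19.4% and 20.9% of all genes. Their median was -0.24, and 14 were lower under median scaling. The higher members were Ugt8a (1.15) and Fa2h (0.46), and both calls were lost without control replicate 2. Ermn, a cytoskeletal protein of myelinating cells that was detected on 1 of 2 IP arrays, was at -2.10 ± 0.18 and Mog, a surface protein of myelin, at -1.15 ± 0.19, the latter lost without control replicate 1, which leaves -0.82. With 1 control sample left, 2 or 1 of the precursor markers were called higher and 1 or 2 of the myelin markers lower.

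Of 27 measured microglial, ependymal and choroid plexus markers, 13 were lower and 0 higher, against 20.9% and 19.4% of all genes. Other listed microglial markers, among them C1qa, Csf1r and Tmem119, did not pass the detection filter. Neither did Ttr and Folr1 of the choroid plexus list. Of 10 microglial markers 4 (40%) were lower (median -0.43). Among these 4 were P2ry12, an ADP receptor of resting microglia (-1.27 ± 0.16), and the cathepsin gene Ctss (-1.26 ± 0.17). The summed microglial signal was 2974 and 2994 in the IP against 4508 and 4667 in input. Of 9 ependymal and tanycyte markers 6 (66.7%) were lower (median -0.92, or -0.64 with 3 genes at their bound). The summed signal of this list was 687.9 and 599.9 in the IP against 1536 and 1545 in input. Dynlrb2, a dynein light chain of motile cilia, read 6.97 and 5.70 in the IP and 8.93 and 8.82 in input (-2.54 ± 0.26), with the IP value of control 2 not well above background. Of 8 choroid plexus markers 3 (37.5%) were lower (median -0.40), led by Sostdc1, a secreted BMP antagonist (-1.59 ± 0.19). With 1 control sample left, 2 of the microglial, 3 or 4 of the ependymal and 2 of the choroid plexus markers were called.

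Of 19 astrocyte markers 1 (5.26%) was higher and 2 (10.5%) lower, against 19.4% and 20.9% of all genes. Their median was -0.24, and 0.10 in control 1 alone. Endothelial and mural markers had 1 higher and 1 lower of 9 (11.1% each). All 3 measured erythroid genes, the globins Hba-a1, Hbb-b1 and Hbb-b2, were higher, at 1.63 ± 0.25, 1.20 ± 0.19 and 1.00 ± 0.17. Their summed signal was 2814 and 2619 on the IP arrays and 1370 and 885.2 on input, and the beta-globin copies are near-identical, so their probes may read each other's RNA. Alas2 and Slc4a1, also erythroid genes, did not pass the detection filter, and without control replicate 2 only Hba-a1 was called, the ratios of Hbb-b1 and Hbb-b2 in control 1 being 0.90 and 0.81. Markers of neighbouring brain regions were present: 5 of 10 thalamic markers (50%, all genes 19.4%) were higher and 1 (10%, all genes 20.9%) lower. The thalamic median was 0.59, or 0.46 with 2 genes at their bound, and Rgs16 was at 1.07 ± 0.16. Without control replicate 1 or 2, 1 thalamic marker was called higher, and the call of Rgs16 was lost without control replicate 2, which leaves 1.05. The summed thalamic signal was 12520 and 7853 in the IP and 10050 and 7426 in input, so the 2 control samples differed in it before capture. The cortical list had 2 of 9 lower (22.2%, all genes 20.9%) and 0 higher. The striatal list had 1 of 7 lower and 1 higher (14.3% each). The part of cell type and dissection in the class results was not tested.

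Among classes with 20 or more measured members, the highest 4 medians were those of ABC transporters and lipid flippases, chromatin enzymes, the microRNA and mRNA decay machinery and RNA helicases. Of 90 chromatin remodelling and histone-modifying enzymes, 51 (56.7%) were higher and 3 (3.33%) lower, against 19.4% and 20.9% of all genes. Their median was 0.64. Brd2 read 12.40 and 12.95 in the control IP against 10.36 and 10.53 in input, and Kmt2b 9.92 and 9.65 against 7.64 and 7.37. Tet2, which oxidises methylcytosine, was at 2.10 ± 0.20, and the class II deacetylase gene Hdac7, not detected on input arrays, was at least 2.03-fold higher. The largest falls were of Brd1, a histone acetyltransferase scaffold, at least 1.34-fold lower, and of Suv39h1, which trimethylates histone H3 at heterochromatin (-0.88 ± 0.20, lost when either control sample was left out, which leaves -0.96 or -0.80). In the fits that left out control replicate 1 or 2, 22 and 23 members were called higher and 1 lower.

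RNA helicases of the DEAD and DEAH box families unwind RNA in splicing, export and decay. They were higher for 21 of 41 (51.2%, all genes 19.4%) and lower for 0 (all genes 20.9%). The helicase median was 0.48, or 0.34 with 5 genes at their bound. Dhx9 read 9.60 and 10.04 in the IP against 7.14 and 7.76 in input, and Ddx41 and Ddx39a were at 1.25 ± 0.16 and 1.21 ± 0.16. Of 34 genes of the microRNA and mRNA decay machinery 17 (50%) were higher and 3 (8.82%) lower. Here the median was 0.61, or 0.41 with 3 genes at their bound. Dicer1, which cuts precursor microRNAs, read 8.87 and 9.2 in the IP against 6.83 and 6.51 in input. Xrn1, which degrades decapped mRNA from the 5′ end, read 9.01 and 8.94 against 6.72 and 6.92, and Smg1, the kinase of nonsense-mediated decay, was at 1.42 ± 0.16. In each of these genes the IP arrays lay above the input arrays. Leaving out control replicate 1 or 2, the higher calls were 6 in both cases for the helicases and 8 and 9 for the decay machinery.

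Large ubiquitin ligases were higher for 12 of 27 (44.4%, all genes 19.4%) and lower for 0 (all genes 20.9%), with a median of 0.41. They included Mycbp2 (1.90 ± 0.21), a ligase of axons, and Herc2 (1.65 ± 0.16), a HECT ligase with roles in DNA repair. Ubiquitin-specific proteases were higher for 14 of 34 (41.2%) and lower for 1 (2.94%), with a median of 0.28. Usp49 was at 1.93 ± 0.17 and Usp7, which stabilises p53 and its ligase, at 1.57 ± 0.18. The opposite held for 36 ubiquitin-conjugating enzymes and small modifiers, of which 1 (2.78%) was higher and 14 (38.9%) lower. Their median was -0.37, and 24 were lower under median scaling. Ube2a was at -1.24 ± 0.19 and Ube2d1 at -1.20 ± 0.16. Of these calls, without control replicate 1 or 2 there were 7 higher ligases in both cases, 6 and 5 higher proteases, and 3 and 4 lower conjugating enzymes.

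ABC transporters and lipid flippases, multispan membrane pumps, were higher for 17 of 30 (56.7%) and lower for 1 (3.33%), with a median of 0.81. Over all genes these shares were 19.4% and 20.9%. Atp8b1, a flippase, was at 2.57 ± 0.26, but its input signal was detected in control 2 alone, where the ratio was 1.99. The member that went the other way was Abcc5, an exporter of cyclic nucleotides and drugs (-1.18 ± 0.16), but its other probe was called higher (1.16 ± 0.18, adjusted p = 0.00315), so the gene has no settled direction. Motor proteins were higher for 16 of 39 (41.0%) and lower for 3 (7.69%). Their median was 0.33, but -0.01 under median scaling against -0.27 for all genes. The heavy chain gene of cytoplasmic dynein, Dync1h1, read 11.93 and 11.94 in the IP against 10.35 and 10.56 in input (1.48 ± 0.17), while the light chain gene Dynll1 read 11 and 10.48 against 11.44 and 11.21 (-0.59 ± 0.17, lost with either control sample left out, at -0.45 and -0.74). Collagens, laminins and other matrix genes were higher for 11 of 25 (44%) and lower for 2 (8%). The matrix median was 0.41, but -0.03 among the 10 detected on all 4 control arrays and 0 with 12 genes at their bound. Fbn1, the microfibril protein fibrillin, was at 1.82 ± 0.17. Col4a1, of basement membranes and detected on 1 of 2 input arrays, was at 1.5 ± 0.17. With control replicate 1 or 2 left out, 10 ABC transporter genes were called higher in both cases, 11 and 6 motor genes, and 6 matrix genes in both cases.

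**Figure D3:**
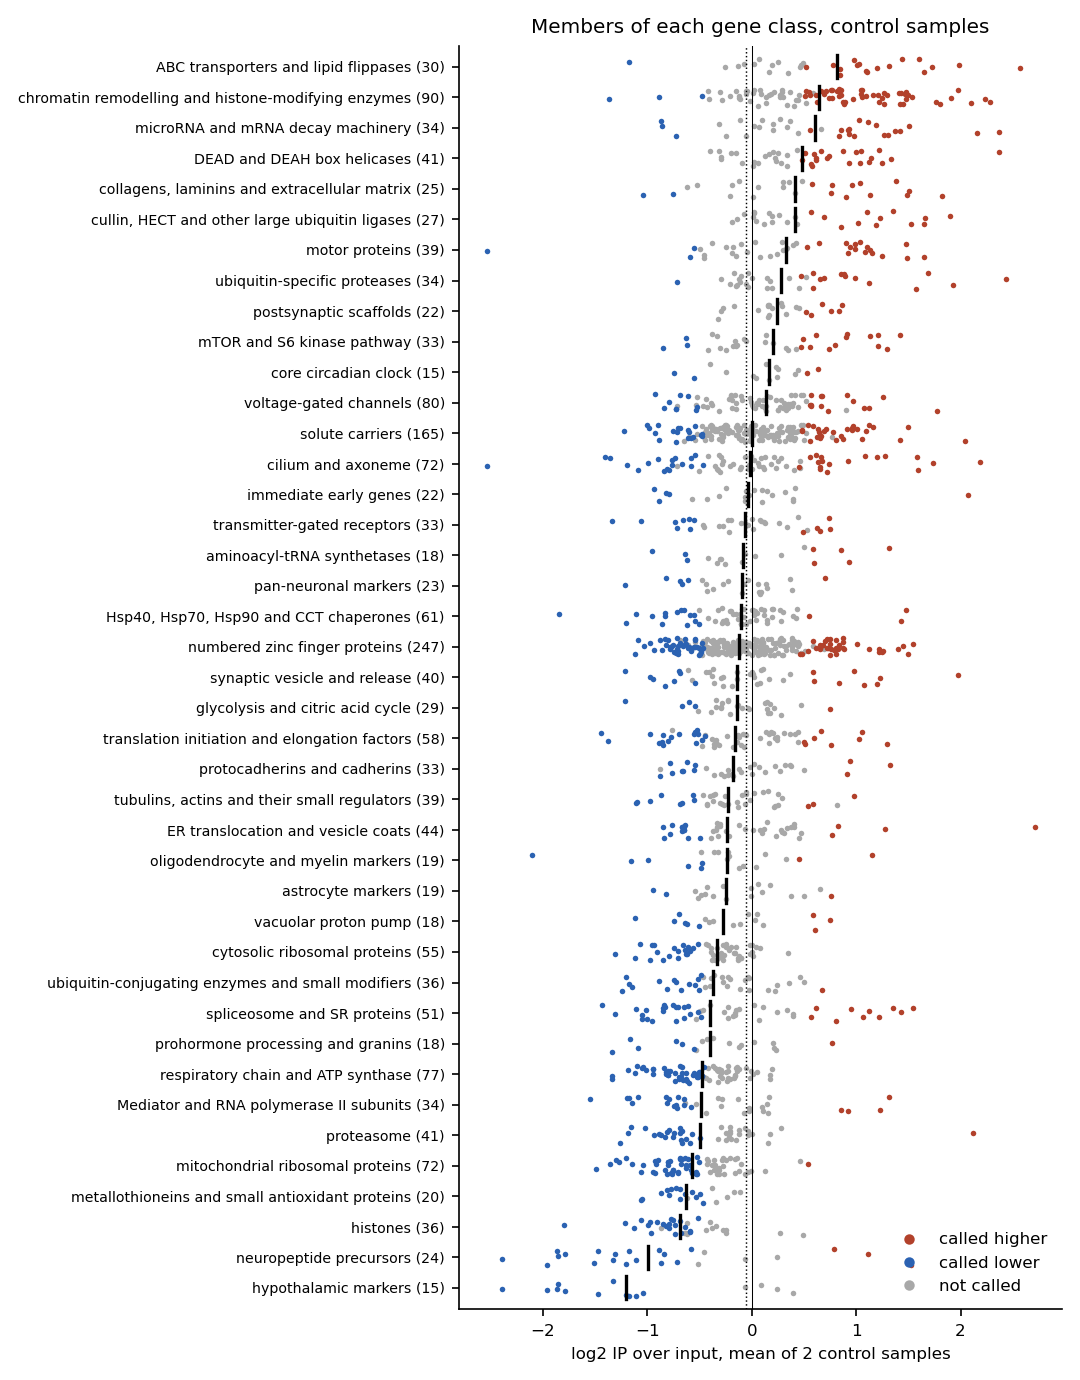
Log2 IP over input (mean of 2 control samples) of every measured member of the gene classes with 15 or more measured members, number in parentheses; red was called higher, blue lower and grey neither, black bars are class medians and the dotted line is the median of all genes, -0.05. Class medians run from -1.20 for hypothalamic markers to 0.81 for ABC transporters and lipid flippases.

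Genes of ribosomal and mitochondrial complexes were under-represented. Of 72 mitochondrial ribosomal protein genes 42 (58.3%) were lower and 1 (1.39%) higher, against 20.9% and 19.4% of all genes. Their median was -0.57, and the falls were led by Mrpl14 (-1.49 ± 0.19) and Mrpl11 (-1.36 ± 0.17). Of 77 genes of the respiratory chain and ATP synthase 41 (53.25%) were lower and 0 higher (median -0.48). Cycs, the electron carrier cytochrome c, and the Rieske protein gene Uqcrfs1 were both at -1.33 ± 0.19. Cytosolic ribosomal protein genes were lower for 20 of 55 (36.4%) and higher for 0 (median -0.33), with Rps27l at -1.31 ± 0.19. Under median scaling the lower calls of these 3 classes were 61, 70 and 48. With control replicate 1 left out they were 10, 10 and 5, and with control replicate 2 left out 6, 3 and 2. Many ribosomal protein genes have processed pseudogenes, and a probe cannot always separate these copies.

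The proteasome, which degrades ubiquitinated proteins, had 21 of 41 genes (51.2%) lower and 1 (2.44%) higher, against 20.9% and 19.4% of all genes. Its median was -0.49, and 32 genes were lower under median scaling. Psmb5, the chymotrypsin-like catalytic subunit, read 7.76 and 7.65 in the control IP against 9.0 and 8.94 in input (-1.26 ± 0.16). Psme4, an activator that caps the proteasome, was the exception. It read 10.25 and 10.26 against 8.28 and 8.0 (2.12 ± 0.17, adjusted p = 0.000793, limma). IP and input arrays did not overlap for either gene. Histone genes were lower for 22 of 36 (61.1%) and higher for 0 (median -0.68). H2bc4 read 8.19 and 7.12 in the IP against 9.53 and 9.38 in input, and H3c13 was at -1.22 ± 0.15. Histone genes are near-identical copies, so these probes may not count separate genes. Metallothioneins and small antioxidant proteins were lower for 14 of 20 (70%) and higher for 0 (median -0.63). The metal-binding Mt2 was at -1.06 ± 0.16, a call lost without control replicate 2, which leaves -0.92. Without control replicate 1 or 2 the lower calls were 5 and 3 for the proteasome, 3 in both cases for histones, and 3 and 0 for the antioxidant list.

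Several complexes had subunits on both sides. Of 34 Mediator and RNA polymerase II genes 4 (11.8%) were higher and 15 (44.1%) lower, against 19.4% and 20.9% of all genes (median -0.48). Med12 and Med13, members of the kinase module of Mediator, were at least 1.36-fold higher and at 1.23 ± 0.19. Med21, a subunit of its middle module, read 7.59 and 7.63 in the IP against 9.18 and 9.15 in input (-1.55 ± 0.18). Med31 was at -1.19 ± 0.16. The 4 higher genes spanned a median of 67.0 kb and the 15 lower ones 8.50 kb. The class had 4 and 5 lower calls with control replicate 1 or 2 left out. The call of Med12 was lost without control replicate 1 and that of Med13 without control replicate 2, which leaves 0.91.

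Of 51 spliceosome and SR protein genes 10 (19.6%) were higher and 22 (43.1%) lower, against 19.4% and 20.9% of all genes (median -0.40). Prpf3 (1.54 ± 0.17) and Sf3b3, of the SF3b complex (1.43 ± 0.15), were higher. Sf3b6, of the same complex (-1.43 ± 0.22), and U2af2, which binds the polypyrimidine tract (-1.31 ± 0.15), were lower. Translation factors had 8 of 58 (13.8%) higher and 17 (29.3%) lower (median -0.16), and 4 and 33 under median scaling. Eif2ak2 and Eif2ak4, kinases that phosphorylate eIF2 and so restrain initiation, were higher (1.30 ± 0.15, and at least 1.10-fold). Eef1e1, a protein of the tRNA synthetase complex, was at -1.44 ± 0.16 and Eif5a2 at -1.38 ± 0.17. Of 18 vacuolar proton pump genes 3 (16.7%) were higher and 6 (33.3%) lower, against 19.4% and 20.9% of all genes. Under median scaling 1 and 12 were, and the proteolipid gene Atp6v0b was at -1.12 ± 0.15 in the main fit. With control replicate 1 or 2 left out, 6 and 3 spliceosome genes, 5 and 2 translation factor genes and 1 proton pump gene in both cases were called lower, and the call of Eif2ak4 was lost without control replicate 2.

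Genes of the pathway that phosphorylates the captured protein were also measured. Rps6 itself, the gene of the antibody's target, read 9.83 and 10.00 in the control IP against 10.71 and 10.81 in input, a log2 ratio of -0.85 ± 0.18 (adjusted p = 0.00917) with no overlap. This is the mRNA of S6 and does not measure its phosphorylation. Of 33 mTOR and S6 kinase pathway genes 13 (39.4%) were higher and 3 (9.09%) lower, against 19.4% and 20.9% of all genes. The class median was 0.21, but 0.01 in control 1 and 0.30 in control 2. Under median scaling it was -0.16, with 6 higher and 8 lower. Rps6kb2, an S6 kinase, was at least 2.11-fold higher, and Pik3r1, a regulatory subunit of phosphoinositide 3-kinase, and Tsc1, a restraint on mTOR, were at 1.21 ± 0.16 and 1.21 ± 0.21. There were 5 and 4 higher members and 0 lower without control replicate 1 or 2. The call of Rps6 was lost with either sample left out, at -0.88 in control 1 and -0.81 in control 2, and that of Tsc1 without control replicate 2, which leaves control 1, where its input was not well above background.

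Classes near the background were the 247 numbered zinc finger proteins, with 37 higher and 42 lower (median -0.12), the 165 solute carriers, with 30 and 20 (median 0.005, and -0.15 under median scaling), and 72 cilium and axoneme genes, with 18 in each direction (median -0.02, and 0.09 when IP and input arrays were normalised apart). Under median scaling the counts were 28 and 68, 20 and 41, and 9 and 24. Leaving out control replicate 1 gave 12 and 6, 6 and 3, and 6 and 5, and leaving out control replicate 2 gave 7 and 1, 4 and 1, and 6 and 3. Within the cilium list, Dnah2, an axonemal dynein heavy chain, was at least 2.20-fold higher and Ift172, of intraflagellar transport, was at 1.73 ± 0.15, while Dynlrb2, given above with the ependymal markers, was at -2.54 ± 0.26. The 18 higher genes of that list spanned a median of 88.3 kb and the 18 lower ones 14.8 kb.

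The position of a gene in this order went with its genomic span, a property that the choice of arrays did not use. A span in RefSeq (GRCm38.p6) was matched for 9734 genes (95.6%). In 5 equal groups of genes, from the shortest to the longest, the median log2 ratio was -0.34, -0.17, -0.07, 0.11 and 0.25. The share called higher was 8.37% in the shortest group and 33.1% in the longest, and the share called lower was 35.9% and 8.73%. Spearman's rho of span with the ratio was 0.33 across genes, 0.33 in control 1 and 0.31 in control 2, and 0.33 for the salt samples, and span had a rho of -0.0008 with the mean level. These are correlations across genes, which are not independent replicates. Over 34 classes with at least 20 measured members, the rho of median span with median ratio was 0.68. In 19 of the 20 classes with at least 3 members called in each direction, the higher members had the longer median span; voltage-gated channels were the exception, at 46.7 kb for the higher and 89.3 kb for the lower. Globins, at a median span of 1.37 kb and a median ratio of 1.20, and Arc, at 3.49 kb, lay on the other side of this relation. Span is not transcript or protein length, which were not used here.

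**Figure D4:**
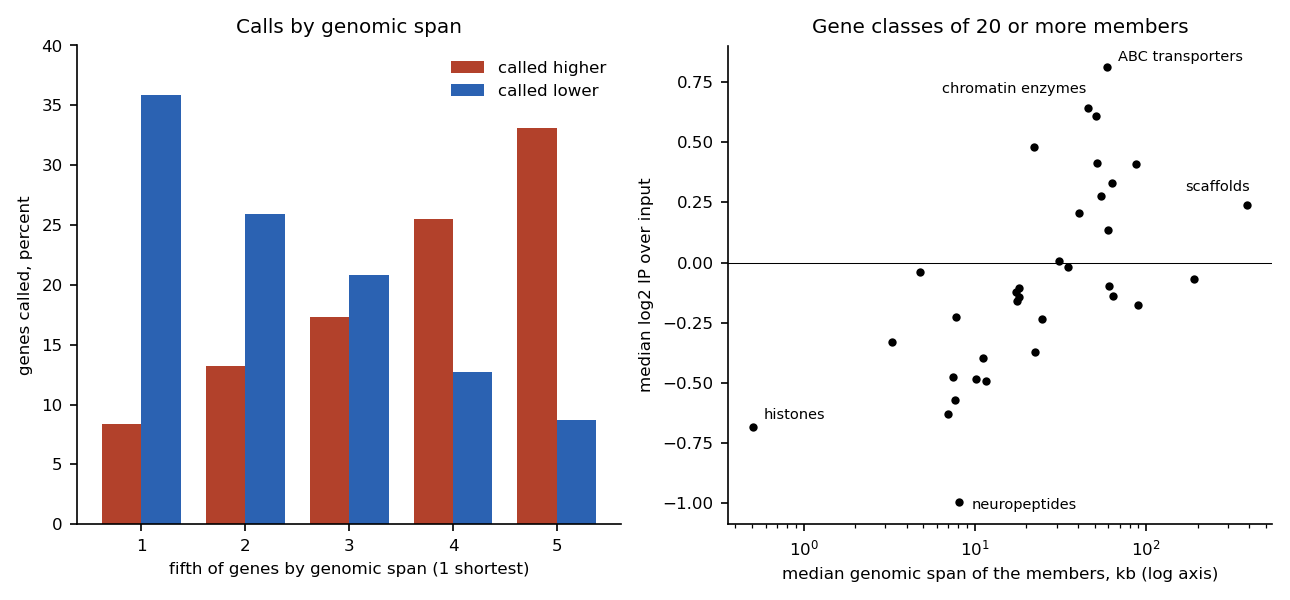
Left, percent of genes called higher (red) and lower (blue) in the control IP in 5 equal groups of genes by genomic span, from the shortest (1) to the longest (5); right, median log2 IP over input against median span (log axis) for the gene classes with 20 or more measured members. The share called higher rises from 8.37% to 33.1% and the share called lower falls from 35.9% to 8.73%.

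In the main fit the ratio went less with level. IP and input arrays were quantile-normalised together, which gives every array the same distribution. This largely removes a trend with level in advance, so a rho near 0 there is not a finding. In 5 equal groups of genes by mean level the median ratio was 0.01 in the lowest and -0.08, -0.05, -0.06 and -0.07 in the others. Spearman's rho with level was -0.04, but 0.06 among genes detected on all 8 arrays. It was -0.19 with the deposited ratios and -0.30 under median scaling, where the rho of span was 0.32. Where a gene had several probes they were rarely called in both directions: of 2781 such genes, 18 (0.647%) had probes called in both directions, and the median range of log2 ratios between probes was 0.25.

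The same order held after salt for most genes. Of the 1971 genes higher at baseline, 1905 (96.7%) had a ratio above 0 in both salt samples, against 36.6% of all genes, and 1533 (77.8%) were called higher there (18.2% of all genes). Of the 2127 lower, 2049 (96.3%) were below 0 in both, against 41.2% of all genes, and 1546 (72.7%) were called lower (18.6% of all genes). The salt samples share no array with the controls, but they share the fit's estimate of spread. The difference between salt and control ratios passed for 0 of 14199 probes in the limma fit (0%). Before adjustment 386 probes had a p under 0.05, and the smallest adjusted p was 0.116. Class medians in salt 1 and salt 2 were -0.81 and -0.65 for neuropeptide precursors, 0.84 and 0.66 for globins, -0.55 and -0.67 for microglial markers and 0.38 and 0.40 for oligodendrocyte precursor markers, and these 4 lists kept their side of 0. Of the 41 classes with 15 or more measured members, 35 had a median on the baseline side in both salt samples. The immediate early genes were the 1 class on the other side in both, at -0.12 and -0.13 in the control samples and 0.26 and 0.53 after salt, where 9 were called higher and 0 lower; none of their differences passed. Of the genes called at baseline, 3 higher and 12 lower ones had both salt ratios on the other side of 0, Avp and Fos among them.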

How the data were processed

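Hypothalamic IP and input RNA of 2 control and 2 salt samples was measured on Illumina BeadArrays. The authors' deposited table gives a raw intensity for every probe, exported without normalisation per the file headers, with GenomeStudio per the submitters' processing notes (version not given in the sources used here). Beside each intensity the authors deposited its detection p-value. The authors' deposited IP/input ratio equals the quotient of these intensities (largest relative gap 1.6e-09). Older symbols were updated through RefSeq (3841 of 25697 probes), and 1120 probes kept the name in the file.

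Intensities were background-corrected, quantile-normalised and logged with limma 3.58.1 (neqc, offset 16) in R 4.3.3. A probe was kept if 2 or more arrays detected it (p under 0.01). Each sample's log2 ratio of IP to input, paired because both arrays come from 1 sample, entered 1 fit with a mean per group and 2 residual and 5.88 prior degrees of freedom. Calls have a Benjamini-Hochberg adjusted p under 0.05. The number of arrays limits the precision. The fit was tested on simulated data.

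The members and lists were chosen with earlier results of these data known. Genes were named by rule among those called: the 12 largest changes each way with detection on all 4 control arrays, up to 5 bounds each way, up to 4 and 2 members per class by size, and all hypothalamic markers with Rps6. Alternatives covered background, scaling, filters, pairing, probes and left-out replicates. Protein lengths were not used, and genomic span, chosen after seeing the data, took their place. Promoter windows matched 7821 genes (76.8%), too few for a check of base composition, which is void.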

Additional observations from a re-analysis of the deposited data

Results flagged for a closer look

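Of the genes called at baseline, 15 had both salt ratios on the opposite side of 0 from both control ratios, 3 of them higher and 12 lower at baseline, and Avp and Fos were among them. The log2 ratio of Avp was -1.53 and -2.18 in the control samples and 1.74 and 1.06 after salt, a difference of 3.26 (adjusted p = 0.116, limma). That of Fos was -0.65 and -0.93 against 0.19 and 0.54, a difference of 1.16 (adjusted p = 1), with its IP signal in control 2 not well above background. Neither difference passed the adjusted test.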

How the results depend on the processing

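The counts of 2823 higher and 2849 lower probes stayed within 1.5 times in both directions under 16 of 19 alternatives, and outside it under median scaling (2130 and 4471) and without either control replicate. The control samples alone gave 3734 and 3971. The fits without salt replicate 1 or 2 gave the same counts, so these are not separate alternatives. The counts were 787 to 3734 higher and 354 to 3971 lower over the 4 fits that left out 1 sample. An unpaired fit gave 2516 and 2478, and a fit with the replicate number as a replicate block gave 2737 and 2698. Same-numbered control and salt samples shared only a number: their deviations correlated at 0.03 across genes. No filter on dim probes gave 2582 and 2557, and the deposited ratios 3129 and 2999. Of the 273 called genes that the naming rule holds, 124 kept their call under every alternative that measured them. The losses were 102 and 128 without control replicate 1 and 2, where 1 control sample remains, 31 in the unpaired fit, 21 with no filter, 13 under median scaling and 13 with IP and input arrays normalised apart. The sign reversed only for Gas5 (-0.0056) and Mrpl49 (-0.020), under median scaling, which shifted the median of all genes. With no background correction 112 were over 1.5 times smaller. Of 53 classes 40 kept the sign of their median in every fit; motor proteins, postsynaptic scaffolds, mTOR genes and matrix genes were among those that did not.

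The difference between salt and control passed for 0 probes, for 1 with no background correction, normexp, median scaling, deposited ratios, probes detected on all 8 arrays, replicate block, or trend and robust moderation, and for 0 to 17 with 1 sample left out. The 17 came without salt replicate 1. Spearman's rho of span with the ratio was 0.332 and ranged from 0.310 to 0.331 with 1 control sample left out. Spearman's rho of level was -0.037, -0.064 with no background correction, -0.192 with the deposited ratios, -0.305 under median scaling, 0.055 for probes detected on all 8 arrays, and -0.037 to -0.033 with 1 control sample left out. These causes were not tested. Genes detected on only 1 side have a bound and no measured fold.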
